A study of Mus musculus with 8 samples.

Results

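The genes described here encode p53 (Trp53), the regulators that hold it in check, and genes that p53 is known to switch on under DNA damage and other stress, without the BCL2 family. They were picked by name from the count table, which held 54532 genes, and all 33 members were found with 1 row each. The tumors were grown from 4T1-FLuc, a mouse triple-negative breast cancer (TNBC) line carrying firefly luciferase, placed under the skin of 6-week-old female BALB/cJ mice, an inbred strain with a working immune system. Of these mice, 4 received saline (also labelled PBS control) and 4 received mAb-DXd/IMQ (labelled HumCD276-Dxd/IMQ), a humanized CD276 antibody loaded with both DXd, a TOP1 inhibitor, and IMQ, an agonist of TLR7 and TLR8, in 5 courses of 16 mg/kg, given 4 days apart. Bulk RNA was sequenced at the study endpoint, and the authors deposited read counts per gene. Total counts were 45019927 to 69582375 in saline tumors and 34591912 to 51625237 in mAb-DXd/IMQ tumors. At this depth, a gene with 3 counts would lie at 0.0431 to 0.0867 CPM, which is a limit for counting error alone. CPM are counts relative to library size, and all values that follow also carry TMM scaling factors. The labels name no sequencing batch.

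p53 is a transcription factor that is normally kept low by Mdm2, which tags it for destruction, and by the related Mdm4. DNA breaks, such as those left when a TOP1 inhibitor traps the enzyme on DNA, stabilize p53, and its targets then halt the cell cycle, repair DNA, adjust metabolism, or start cell death. Mdm2 is itself a target, which closes a feedback loop. 4T1 cells are generally described as lacking functional p53, whereas the blood vessels, fibroblasts, and immune cells of the host carry an intact Trp53 gene. Counts from a whole tumor do not separate the cancer cells from the host cells, and fewer cells of a type and less RNA per cell cannot be told apart. Several members, among them Gadd45a, Sesn2, and Gdf15, are also known to respond to stress without p53.

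Tissue markers were read first. The carcinoma markers Krt18 and Krt8 were abundant, at 589.5 to 971 CPM and 493 to 887 CPM across the 8 tumors. Of the receptors whose absence defines TNBC, Pgr was at 0.161 to 0.808 CPM, Esr1 at 13.6 to 20.6 CPM, and Erbb2 at 74.3 to 118 CPM, so none of these was absent as RNA. Epidermis markers stood apart in a pair of tumors. Their 10 genes summed to 37.8 CPM in saline tumor 1 and 107 CPM in mAb-DXd/IMQ tumor 2, against 8.19 to 13.9 CPM in the other 6 tumors. Krt10 was the most abundant of them over all tumors together, and Krt2 was at 0 in every tumor. Saline tumor 2 had the lowest carcinoma marker sum (2105 CPM), the highest macrophage and monocyte sum (2316 CPM), and the lowest skeletal muscle sum (39.8 CPM). The highest carcinoma marker sum (4153 CPM, beside 2105 to 3197 CPM in the others) was that of mAb-DXd/IMQ tumor 1. That tumor also had the fewest detected genes (22754).

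No member passed the thresholds used by the study, a false discovery rate (FDR) under 0.05 together with a log2 fold change above 0.58 in size, in edgeR's quasi-likelihood test. The low-count filter kept 33 of 33 members among 18511 tested genes, of which 197 (1.06%) passed, 101 higher and 96 lower in mAb-DXd/IMQ tumors. With upper quartile scaling the split was 145 higher and 73 lower. The count rested on several single tumors, as it was 111, 10, and 11 without saline tumor 2, 3, or 4 and 76, 88, and 12 without mAb-DXd/IMQ tumor 2, 3, or 4. The split was 9 higher and 1 lower without saline tumor 3, 9 and 2 without saline tumor 4, and 10 and 2 without mAb-DXd/IMQ tumor 4. With the tumors' replicate numbers added to the fit as a block it was 10 and 4. Without the pair of tumors highest in epidermis counts, a fit chosen after the data were seen, 21 genes and 0 members passed. At an unadjusted p under 0.05, 7 members stood out, which is 21.2% of members beside 18.9% of all tested genes. Of these, 6 were higher (Phlda3, Tnfrsf10b, Cdkn1a, Eda2r, Psrc1, and Aen), beside 9.13% of tested genes, and 1 was lower (Btg2), beside 9.79%. DESeq2 passed 3 members (Phlda3, Eda2r, and Psrc1, all higher) and 4.43% of genes. Leaving out mAb-DXd/IMQ tumor 1 let 1 member, Psrc1, pass in edgeR. Adjusted p below are those of edgeR after Benjamini-Hochberg adjustment unless DESeq2 is named. A p-value here sets the difference between groups against the spread between tumors within groups.

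The same picture came from overlap between groups. Every mAb-DXd/IMQ tumor exceeded every saline tumor for 4 members (Cdkn1a, Phlda3, Tnfrsf10b, and Eda2r), and the reverse held for 0. Such separation occurred for 13.1% of tested genes, 5.97% higher and 7.10% lower. All 4 separated members were highest in mAb-DXd/IMQ tumor 1, the tumor with the highest carcinoma marker sum, a relation that was not tested. Without that tumor, the log2 fold changes of Cdkn1a, Phlda3, Tnfrsf10b, and Eda2r were 0.49, 0.58, 0.34, and 1.37. Without regard to direction, the members' shares at p under 0.05 and without overlap (12.1%) were near those of all genes. Taken by direction, 18.2% of members were higher and 3.03% lower at p under 0.05, a difference from all genes that was not tested. The median log2 fold change of the members was 0.15, beside 0.0215 for all tested genes, and 22 of 33 were above 0 (21 to 23 under 3 other scalings, with Tigar and Apaf1 changing sign). Without mAb-DXd/IMQ tumor 3 the median was 0.093 with 19 members above 0, and without mAb-DXd/IMQ tumor 2 it was 0.099 with 20. The difference of the members' median from that of all genes was not tested, and nothing particular to these genes is read from it.

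**Figure D1:**
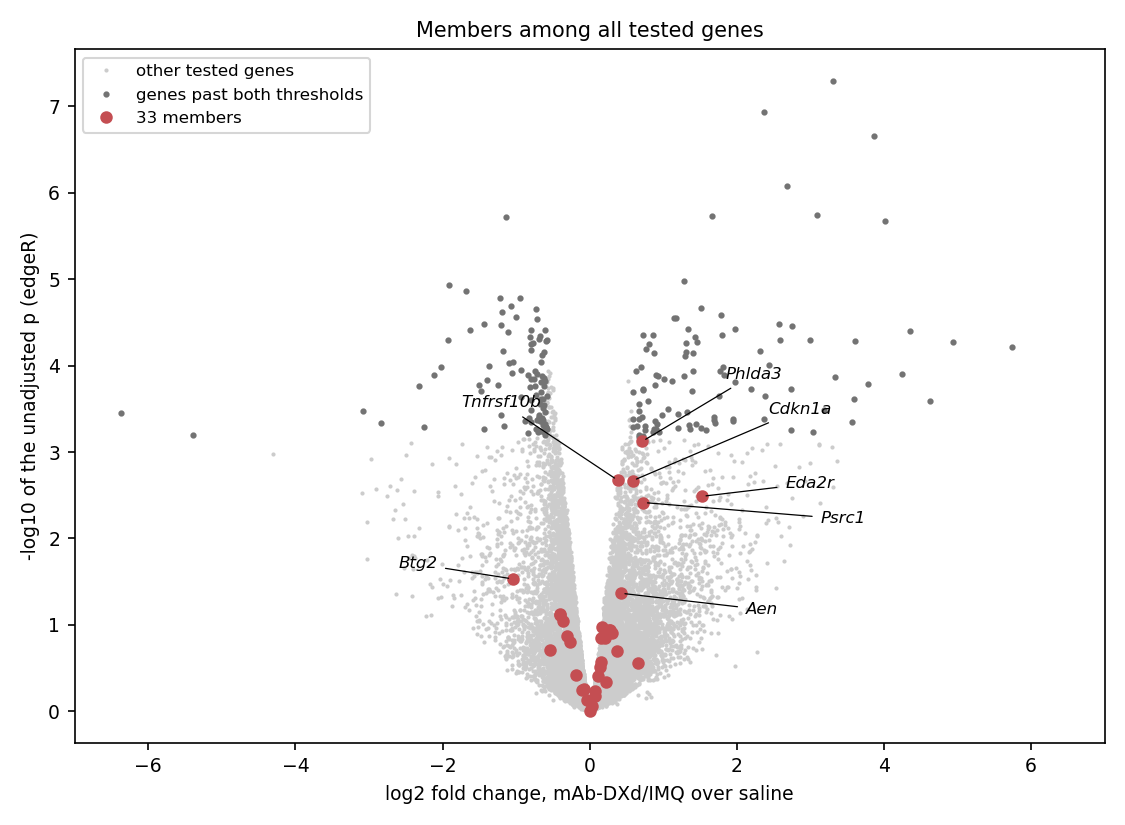
Log2 fold change (mAb-DXd/IMQ over saline) against the −log10 of the unadjusted edgeR p for all tested genes, with the 33 members as red points and genes past both thresholds in dark gray. None of the members is dark gray, and Phlda3 lies nearest to the genes that passed.

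The first role group holds p53 and its regulators, and none of its 4 genes separated the groups. Trp53 (ENSMUSG00000059552, chr11:69580359-69591873 on GRCm38, as for all positions here) had 66.6, 75.7, 70.7, and 64.15 CPM in saline tumors 1 to 4 and 59.6, 72.1, 92.3, and 82.5 CPM in mAb-DXd/IMQ tumors 1 to 4. The treated tumors lay on both sides of the saline tumors. The difference in log2 was 0.15 with a standard error of 0.14 (adjusted p = 0.604), and it was 0.042 without mAb-DXd/IMQ tumor 3 and 0.25 without mAb-DXd/IMQ tumor 1. Reads of Trp53 were counted in every tumor. Mdm2 (ENSMUSG00000020184, chr10:117688875-117710758) had 69.95, 61.3, 60.7, and 62.45 CPM in saline tumors and 70.2, 74.3, 68.5, and 72.2 CPM in mAb-DXd/IMQ tumors. Here the groups overlapped only through the pair of saline tumor 1 and mAb-DXd/IMQ tumor 3, the former being above the latter. In log2 terms Mdm2 differed by 0.16 with a standard error of 0.093 (adjusted p = 0.3705). Mdm4, which binds and silences p53, averaged 197 ± 13.8 CPM under saline (SD, n = 4 here and below) and 201 ± 53.3 CPM after mAb-DXd/IMQ, where tumor 1 was at 123 CPM and the others at 217 to 241 CPM. Ppm1d, a phosphatase that switches off p53 signaling, had 11.5 ± 1.78 and 10.7 ± 1.85 CPM, a difference within the spread of either group.

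**Figure D2:**
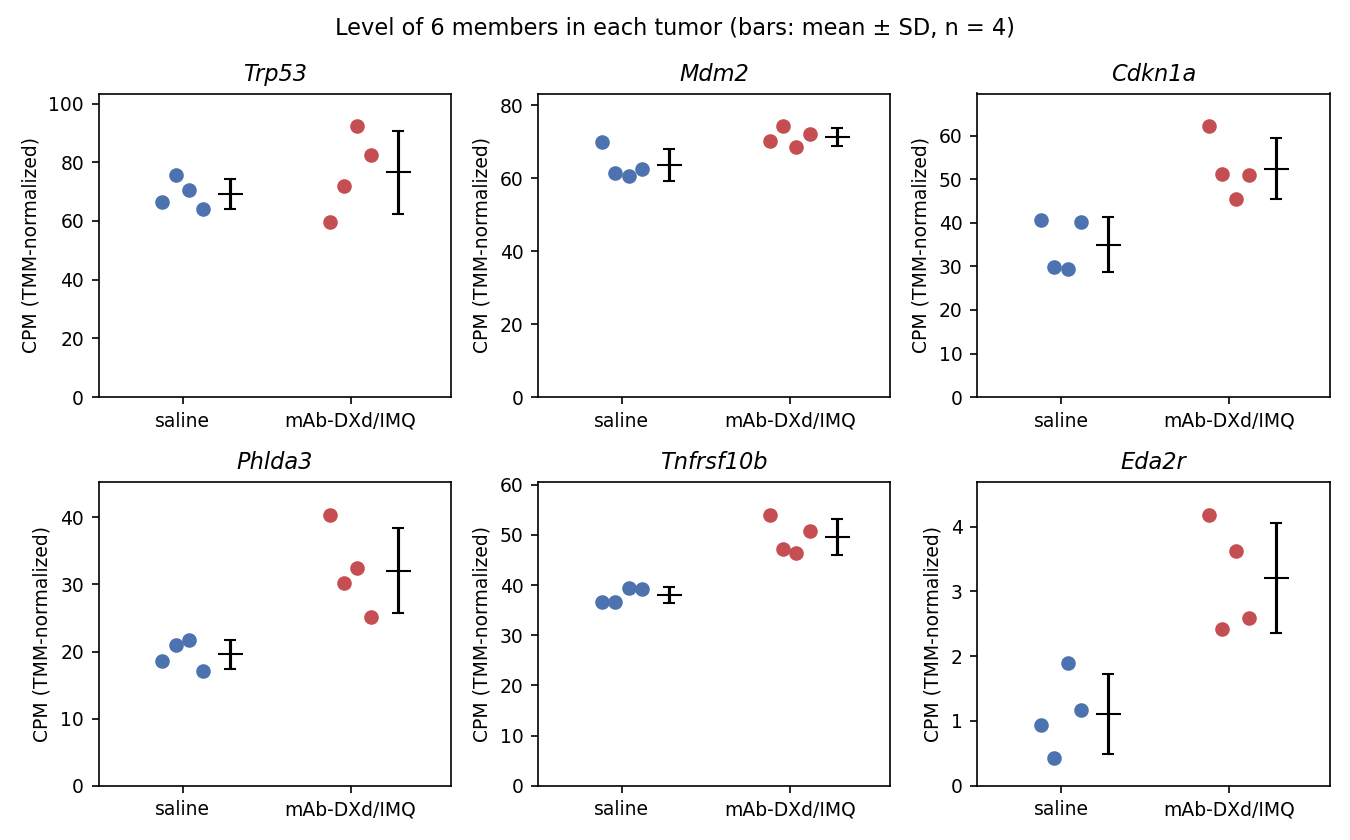
TMM-normalized CPM of 6 members in each saline and mAb-DXd/IMQ tumor (points, tumors 1 to 4 from left to right) with the mean ± SD (n = 4) beside them. Groups overlap for Trp53 and Mdm2 and do not overlap for Cdkn1a, Phlda3, Tnfrsf10b, and Eda2r.

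The cell cycle group has 8 genes, of which 6 were above 0 on the log2 fold change scale and 0 passed. Cdkn1a (ENSMUSG00000023067, chr17:29090976-29100727) encodes p21, the inhibitor of cyclin-dependent kinases and the best known p53 target. It had 40.7, 29.9, 29.3, and 40.1 CPM in saline tumors and 62.2, 51.1, 45.5, and 50.9 CPM in mAb-DXd/IMQ tumors. All treated tumors were above all saline tumors. The log2 fold change of 0.58 (standard error 0.15) missed the threshold on FDR (adjusted p = 0.0702), and leaving out each tumor in turn gave 0.49 to 0.66. In DESeq2 the adjusted p was 0.0147, and there the log2 fold change of 0.578 was just under the fold limit.

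Promoters were looked up for the members in RefSeq (GRCm38.p6), as 250 bases before to 50 bases after each annotated start. The table held 26 of 33 members with 34 promoters, and it held no entry for Trp53inp1, Zmat3, Ddb2, Tnfrsf10b, Rrm2b, Perp, and Xpc. The decamer that makes up p53 response elements, a consensus known by that name, reads the same on both strands and was found in 13 of 34 member promoters, beside 8.36% of all 32851 promoters. A pair of decamers at most 13 bases apart was found in 1 member promoter, that of Cdkn1a, beside 0.0731% of all. CCAAT, searched on both strands, was in 20 of 34 member promoters and 37.4% of all, and TTTGAA, also on both strands, in 5 of 34 and 17.9% of all. The members were chosen as known p53 genes, so these shares describe the list, and a match is not evidence of binding. Promoters are printed for Cdkn1a, Phlda3, and Eda2r, whose groups did not overlap, and for Mdm2, each at the gene's most upstream start. They run 5′ to 3′ on the gene's strand, with decamers in capitals. Sequence outside the promoter windows, such as introns further into a gene, was not searched. The Cdkn1a window is chr17:29090729-29091028 on the plus strand, and that of Phlda3 is chr1:135765835-135766134 on the plus strand. The Eda2r window is chrX:97377160-97377459 and the Mdm2 window chr10:117710709-117711008, both on the minus strand. In GENCODE M21, 53, 16, 57, and 50 bases of the Cdkn1a, Phlda3, Eda2r, and Mdm2 windows lie in exons of the gene itself, and the rest lies upstream with no other gene annotated there.
Cdkn1a: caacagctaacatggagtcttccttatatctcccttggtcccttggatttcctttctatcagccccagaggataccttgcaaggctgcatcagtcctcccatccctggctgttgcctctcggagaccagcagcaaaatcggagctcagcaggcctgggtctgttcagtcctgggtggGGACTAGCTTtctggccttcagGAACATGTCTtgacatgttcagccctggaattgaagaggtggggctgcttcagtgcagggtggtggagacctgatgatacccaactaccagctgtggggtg
Phlda3: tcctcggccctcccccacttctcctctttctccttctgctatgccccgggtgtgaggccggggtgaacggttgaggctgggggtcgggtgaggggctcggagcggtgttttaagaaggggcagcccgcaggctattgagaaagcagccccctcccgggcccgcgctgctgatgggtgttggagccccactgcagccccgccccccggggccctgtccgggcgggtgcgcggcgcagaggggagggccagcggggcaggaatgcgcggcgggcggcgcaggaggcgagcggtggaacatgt
Eda2r: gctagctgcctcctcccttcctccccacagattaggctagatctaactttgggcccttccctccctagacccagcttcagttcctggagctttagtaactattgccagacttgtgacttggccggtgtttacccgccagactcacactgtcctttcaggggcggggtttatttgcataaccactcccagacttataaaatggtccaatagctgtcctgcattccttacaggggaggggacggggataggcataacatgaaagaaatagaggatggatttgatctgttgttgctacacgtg
Mdm2: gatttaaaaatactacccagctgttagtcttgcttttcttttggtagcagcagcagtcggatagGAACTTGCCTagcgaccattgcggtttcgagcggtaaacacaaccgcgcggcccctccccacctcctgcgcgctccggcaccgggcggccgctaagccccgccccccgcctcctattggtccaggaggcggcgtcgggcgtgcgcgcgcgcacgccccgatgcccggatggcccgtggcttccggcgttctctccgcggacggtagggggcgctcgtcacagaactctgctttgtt

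In the printed Cdkn1a promoter, the decamers began 73 and 51 bases before the start, and its other promoter in the table, chr17:29093519-29093818, held 0. The Mdm2 promoter held a match 186 bases before the start, while the windows of Phlda3 and Eda2r held 0 matches, which says only that no whole decamer lies in them. The Phlda3 window ended in gaacatgt, which matches the beginning of the decamer, and the bases after this edge were not scanned. Trp53, Ppm1d, Gadd45a, Ccng1, Gtse1, Ckap2, Ei24, Aen, Polk, and Sesn1 also had a match in at least 1 promoter.

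The remaining cell cycle members differed widely in how steady they were. Btg2, an antiproliferative factor, had 10.3, 20.8, 29.1, and 63.4 CPM in saline tumors but 13.3 to 16.9 CPM in mAb-DXd/IMQ tumors, so that the saline tumors spread over a 6.15-fold range around the treated ones. The fitted log2 fold change, -1.05 with a standard error of 0.42 (adjusted p = 0.211), was -0.42 without saline tumor 4. That tumor also had the highest Jchain, a plasma cell gene, at 27.4 CPM against 1.00 to 7.11 CPM in the other saline tumors, and the part of plasma cells in the Btg2 value was not tested. Gadd45a, a growth arrest and DNA damage gene, ranged from 80.6 to 296.5 CPM in saline tumors and from 63.7 to 194 CPM in mAb-DXd/IMQ tumors (adjusted p = 0.492). Saline tumors 1 and 2, at the ends of the saline range of Gadd45a, were also at the ends of the range of macrophage and monocyte markers, at 733 and 2316 CPM in sum, a relation that was not tested. Ccng1, a cyclin that feeds back on p53, had 79.4 ± 7.55 and 83.8 ± 15.6 CPM, and its log2 fold change of 0.078 was -0.048 without mAb-DXd/IMQ tumor 1. Plk2, a kinase of the polo family, had 38.3 ± 4.825 and 46.3 ± 10.35 CPM.

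Gtse1, Psrc1, and Ckap2 encode proteins of microtubules and the mitotic spindle, and they are also read as genes of dividing cells. Psrc1 had 7.10, 6.41, 7.56, and 6.33 CPM in saline tumors and 7.53, 11.8, 12.9, and 13.2 CPM in mAb-DXd/IMQ tumors. Only mAb-DXd/IMQ tumor 1 lay within the saline range. The log2 fold change came to 0.73, with a standard error of 0.20 (adjusted p = 0.08845), and without that tumor it was 0.88 and passed (adjusted p = 0.0402). Gtse1 had 15.4 ± 3.08 and 19.1 ± 3.66 CPM, and Ckap2 had 55.01 ± 12.9 and 57.9 ± 5.51 CPM, with log2 fold changes of 0.31 and 0.074. Beside them, Mki67 had 0.22 (247.8 ± 38.6 and 289 ± 45.95 CPM) and Top2a 0.27 (353.5 ± 70.03 and 427 ± 41.1 CPM). Saline tumor 2 was the lowest of all 8 tumors for Gtse1, Ckap2, Mki67, and Top2a. Without this tumor, the log2 fold changes of Gtse1, Ckap2, Mki67, and Top2a were 0.20, -0.073, 0.13, and 0.17.

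Among the 12 members that act in cell death, 8 were above 0 (and also Apaf1 with upper quartile scaling), beside 52.6% of all tested genes. In 3 of the 12 (25%) the treated tumors lay above all saline tumors, beside 5.97% of tested genes, a difference that was not tested. Phlda3 (ENSMUSG00000041801, chr1:135766119-135769136), a p53-induced repressor of Akt, had 18.5, 20.9, 21.8, and 17.0 CPM in saline tumors and 40.4, 30.15, 32.5, and 25.1 CPM in mAb-DXd/IMQ tumors. The lowest treated tumor was above the highest saline tumor. Its log2 fold change of 0.71 (standard error 0.15) came closest to the FDR threshold of all members (adjusted p = 0.0518). It passed with upper quartile scaling (0.0395), total counts only (0.0404), no low-count filter (0.0330), a filter of 1 CPM in 4 tumors (0.0394), and DESeq2 (0.002265), in each case given as the adjusted p. With each tumor left out in turn it passed in 0 of 8 fits, and the range over all alternatives was 0.002265 to 0.192.

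Tnfrsf10b (ENSMUSG00000022074, chr14:69767472-69784411), the mouse receptor for the death ligand TRAIL, was the steadiest of the separated genes. It had 36.6, 36.6, 39.5, and 39.25 CPM in saline tumors and 54.1, 47.1, 46.4, and 50.7 CPM in mAb-DXd/IMQ tumors. No saline tumor reached the treated range. The fold change, 0.38 in log2 with a standard error of 0.096 (adjusted p = 0.0702), lay under the fold limit. Eda2r (ENSMUSG00000034457, chrX:97333840-97377216), a receptor for an ectodysplasin ligand, was the least abundant of the separated genes. Only 46, 19, 106, and 80 reads were counted in saline tumors and 203, 113, 166, and 92 in mAb-DXd/IMQ tumors. These gave 0.933, 0.429, 1.90, and 1.17 CPM against 4.19, 2.42, 3.63, and 2.59 CPM. Its log2 fold change of 1.52 was the largest among the members (standard error 0.41, adjusted p = 0.0824), and DESeq2 gave an adjusted p of 0.00553.

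The other death genes did not separate the groups. Fas, the receptor of Fas ligand, had 25.25 ± 3.30 and 20.9 ± 5.14 CPM (log2 fold change -0.27). Aen, a nuclease induced by p53, had 18.1 ± 2.58 and 24.2 ± 6.21 CPM (0.42, adjusted p = 0.247). Pidd1, which assembles a caspase-activating complex, was at 22.8 CPM in mAb-DXd/IMQ tumor 3 and at 8.66 to 11.8 CPM in the other treated tumors, and its log2 fold change of 0.37 was -0.014 without that tumor. Perp, a desmosome protein of epithelia, was lowest in saline tumor 2 and mAb-DXd/IMQ tumor 3 (64.8 and 62.0 CPM), the tumors with the lowest carcinoma marker sums of their groups (2105 and 2398 CPM). It was highest in mAb-DXd/IMQ tumor 2 (168 CPM), the tumor with the most epidermis counts, and the part of these tissues was not tested. Apaf1, the core of the apoptosome, had 41.15 ± 4.375 and 40.02 ± 3.76 CPM, and Ei24 and Zmat3 had log2 fold changes of 0.15 and 0.11. Trp53inp1 and Dram1, which act in autophagy, were at -0.36 and -0.40 (adjusted p = 0.3475 and 0.3195). With each tumor left out, the values lay between -0.53 and -0.19 for Trp53inp1, -0.58 and -0.24 for Dram1, and -0.41 and -0.14 for Fas. For Aen they lay between 0.25 and 0.53, for Ei24 between 0.096 and 0.20, and for Zmat3 between 0.061 and 0.17.

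Of the 5 members for DNA repair and nucleotide supply, 2 were above 0, 3 were below, and none had an unadjusted p under 0.05. Xpc and Ddb2 recognize damage in nucleotide excision repair, Ercc5 cuts the damaged strand, Polk copies past lesions, and Rrm2b supplies deoxynucleotides. Their log2 fold changes were -0.076, -0.19, 0.16, 0.20, and -0.30. With each tumor left out, these lay between -0.165 and -0.0064 for Xpc, -0.34 and -0.024 for Ddb2, and 0.099 and 0.24 for Ercc5. For Polk they lay between 0.10 and 0.28, and for Rrm2b between -0.51 and -0.15. Rrm2b was unusually even in saline tumors, at 35.4 ± 0.705 CPM, and spread from 19.0 to 39.6 CPM in mAb-DXd/IMQ tumors. Exons of Ddb2 overlap those of Acp2 on the opposite strand, and Acp2 collected 396% of the Ddb2 counts. Since the strandedness of the counting was not stated, reads of the 2 genes may not be separable and the Ddb2 value is uncertain. Another 5 members (Cdkn1a, Gadd45a, Ei24, Rrm2b, and Tigar) overlap an opposite-strand gene whose counts were at most 1.55% of their own.

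The 4 metabolic and stress members also stayed below the thresholds. Sesn1 and Sesn2, which restrain mTORC1 under stress, differed in sign, with log2 fold changes of -0.40 (28.4 ± 8.69 and 21.5 ± 2.72 CPM) and 0.26 (8.305 ± 0.727 and 9.92 ± 0.608 CPM). The value of Sesn1 was -0.21 without saline tumor 2 and -0.57 without saline tumor 1. Tigar, which slows glycolysis, had 8.27 ± 0.756 and 8.27 ± 1.44 CPM, and its sign changed with RLE scaling. Gdf15, a secreted stress hormone, had 7 to 37 counts in saline tumors and 24 to 39 in mAb-DXd/IMQ tumors. The fitted difference was 0.65 on the log2 scale, with a standard error of 0.57 (adjusted p = 0.574), and it was 0.32 without saline tumor 4 and 0.99 without saline tumor 3.

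**Figure D3:**
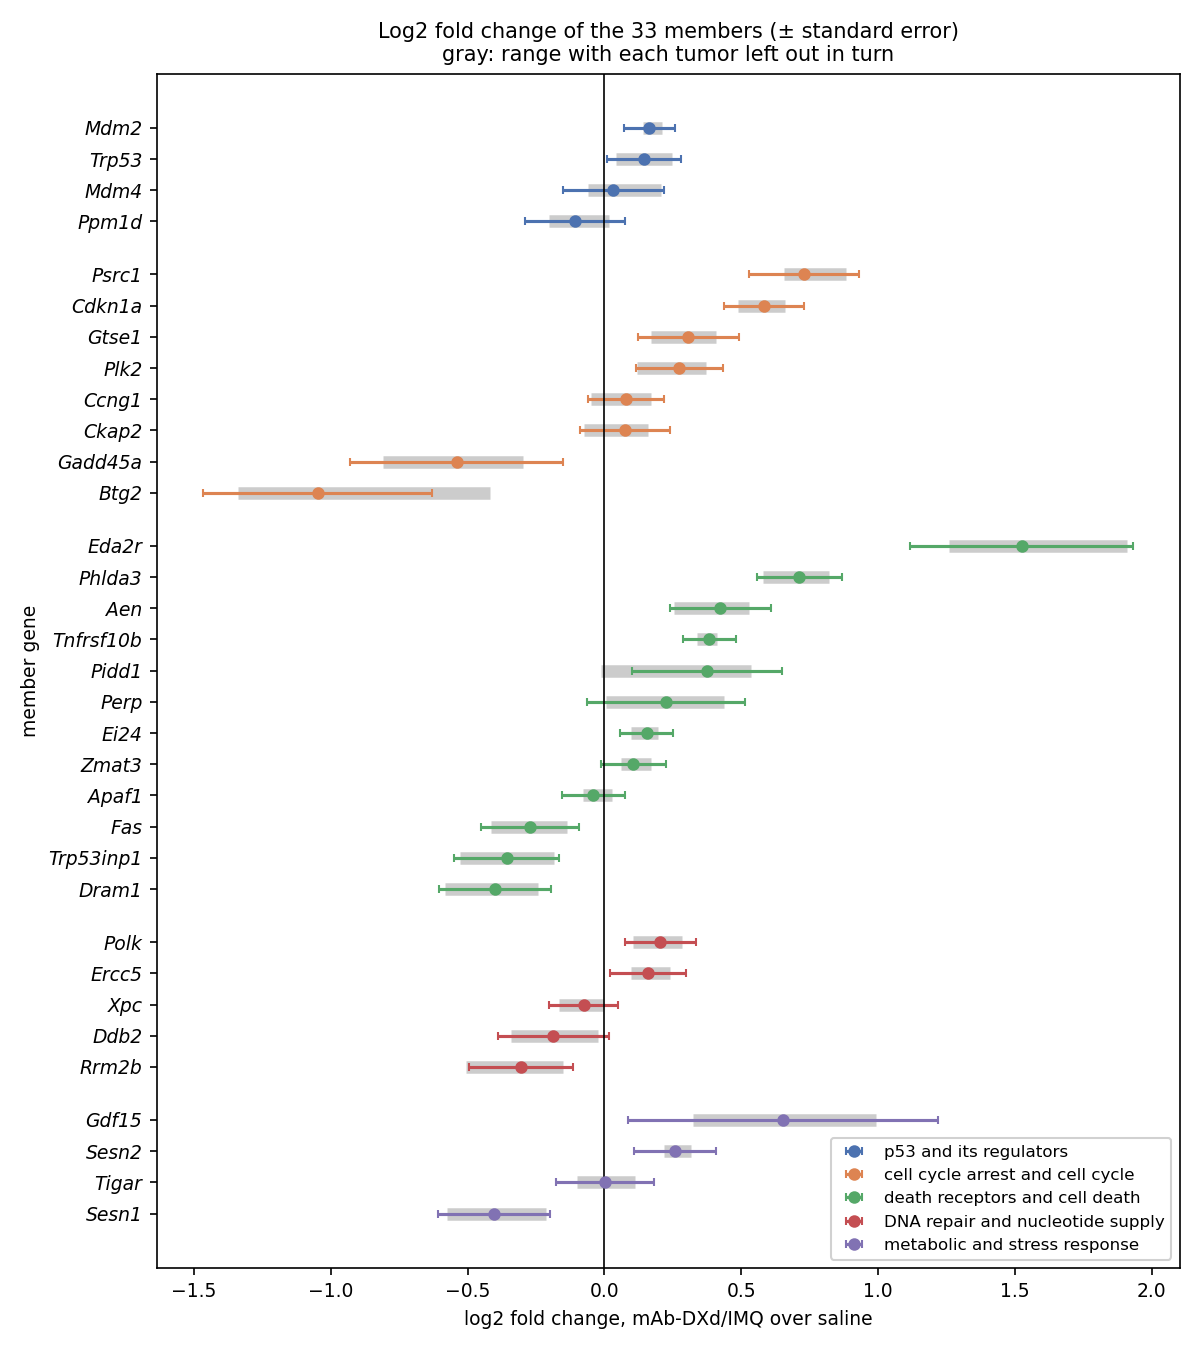
Log2 fold change of each member (points, mAb-DXd/IMQ over saline) with its standard error (bars), grouped by role, and the range with each tumor left out in turn (gray). The gray ranges of Mdm4, Ppm1d, Ccng1, Ckap2, Pidd1, Apaf1, and Tigar cross 0.

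Levels were compared between members per kb of gene length (RPKM, from TMM-normalized CPM). In saline tumors Gadd45a (117 RPKM) and Perp (51.75 RPKM) were highest, followed by Ccng1 (22.6), Ei24 (20.8), and Trp53 (17.1), and Gdf15 (0.222) and Eda2r (0.188) were lowest. The SD of Gadd45a was 53.3 RPKM and that of Perp 13.8 RPKM in saline tumors, while the neighbors Trp53 and Ckap2 (17.11) did not differ beyond their spread. In mAb-DXd/IMQ tumors the same genes led, at 80.4 RPKM for Gadd45a and 60.5 RPKM for Perp, and Phlda3 stood at 20.6 RPKM, beside 12.55 RPKM in saline tumors. The SD of log2 CPM within a group had a median over the members of 0.14 under saline and 0.27 after mAb-DXd/IMQ, beside 0.23 and 0.30 over all tested genes. Most members were thus at least as even among saline tumors as the typical gene, in a comparison that was not matched for abundance. Among the members that were less even, Gdf15, Btg2, Eda2r, and Gadd45a had the largest SD in saline tumors (1.13, 1.09, 0.85, and 0.84).

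**Figure D4:**
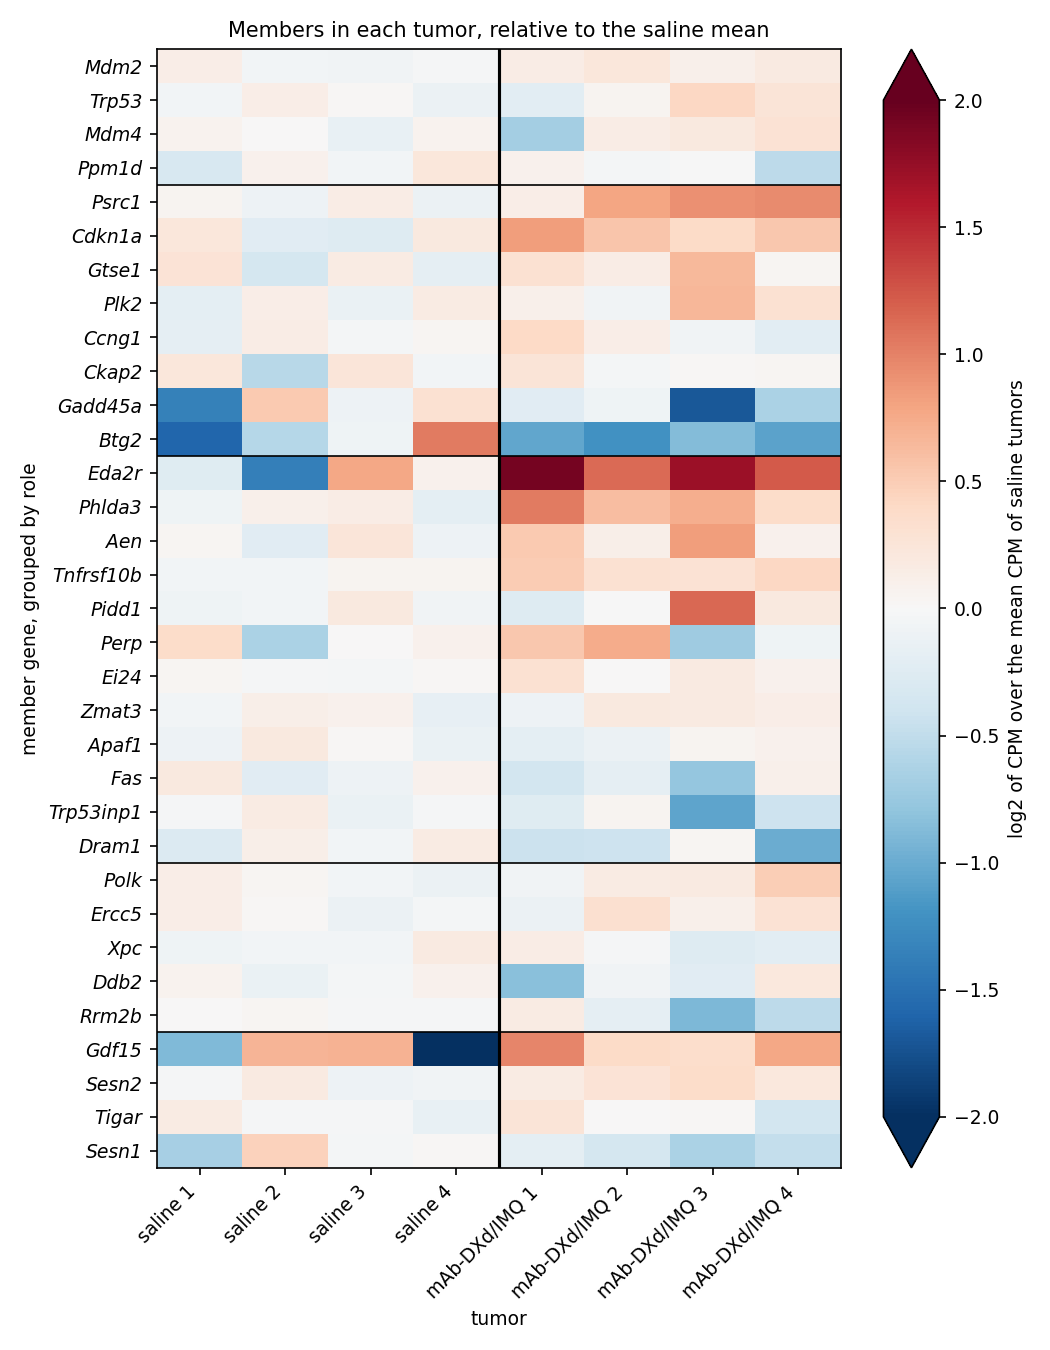
Log2 of each member's CPM in each tumor over its mean CPM in saline tumors (color), with members in rows grouped by role and tumors in columns. Red cells fill the mAb-DXd/IMQ columns for Cdkn1a, Eda2r, Phlda3, and Tnfrsf10b, while Gdf15, Btg2, Eda2r, and Gadd45a vary most among saline tumors.

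A wider list of p53 pathway genes held 45 other cofactors, kinases, and targets, of which 44 were in the table and 41 were tested. Tnfrsf10a was absent, and Trp73, Ptchd4, and Trp53cor1 did not pass the low-count filter. With TMM scaling, 21 were above 0 and 20 below, and 1 passed the thresholds. At an unadjusted p under 0.05 there were 4 higher and 5 lower, which together is 22% of the list beside 18.9% of all tested genes. The gene that passed was Hipk2 (ENSMUSG00000061436), a kinase that phosphorylates p53, which fell from 43.05 ± 6.51 to 18.7 ± 4.42 CPM, with 48.6, 48.8, 37.9, and 37.0 CPM in saline tumors and 13.1, 19.2, 23.9, and 18.5 CPM in mAb-DXd/IMQ tumors. In log2 this was -1.20, with a standard error of 0.18 (adjusted p = 0.0201). It did not pass without saline tumor 3 (adjusted p = 0.06575), saline tumor 4 (0.0846), or mAb-DXd/IMQ tumor 4 (0.0694), nor without the pair of tumors highest in epidermis counts (0.0666), a fit chosen after the data were seen. In these fits the log2 fold change of Hipk2 was -1.26, -1.265, -1.19, and -1.15, and 10, 11, 12, and 21 genes passed in all. Nor did it pass with the tumors' replicate numbers added to the fit as a replicate block (log2 fold change -1.22, adjusted p = 0.0831) or with the block and a gene length correction (-1.15, 0.0906). The adjusted p over all alternatives lay between 5.75e-07 and 0.0906. Ep300 and Trp53bp2, which encode partners of p53, did not pass, with log2 fold changes of -0.49 and -0.47 (adjusted p = 0.0702 and 0.0960) and groups that did not overlap. Such separation, in either direction, held for 22% of this list and 13.1% of all tested genes, a difference that was not tested.

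The integrated stress response can act on Gdf15 and Sesn2 without p53. Of its 12 listed genes, which include Gdf15 and Sesn2 themselves (both above 0), 7 were above 0, 5 were below, and 0 passed in edgeR. At an unadjusted p under 0.05 there were 2 (16.7%), both lower. Among all tested genes, 9.79% were lower at this limit and 18.9% stood out in either direction. The smallest p belonged to Cebpb (165 ± 8.69 and 110.0 ± 26.9 CPM, log2 fold change -0.59, adjusted p = 0.102) and to the cystine transporter Slc7a11 (108 ± 65.5 and 39.6 ± 19.3 CPM, -1.45, 0.129). DESeq2 passed Cebpb (adjusted p = 0.027). The central factor Atf4 had 0.23 and its target Ddit3 0.52. Saline tumor 1 had the most Ddit3 of the saline tumors (19.95 CPM, beside 8.69 to 9.96 CPM), and without it the value of Ddit3 was 0.89. All 14 proliferation genes were above 0 with TMM scaling, beside 52.6% of all tested genes, and 0 passed in edgeR. At an unadjusted p under 0.05, 8 of them (57.1%) were higher, beside 9.13% of all tested genes, a difference that was not tested. Bub1, Ube2c, Ccnb2, and Birc5 were at 0.63, 0.54, 0.63, and 0.56 on the log2 scale (adjusted p = 0.0580 to 0.117). These 4, named for their smallest p, were also those of the list whose groups did not overlap. That is 28.6% of the list, beside 5.97% of all tested genes that were higher without overlap, a difference that was not tested. Of the 4, Bub1 and Ccnb2 passed in DESeq2 (adjusted p = 0.00553 and 0.0393). Bub1 also passed in edgeR with upper quartile scaling (adjusted p = 0.0483), no low-count filter (0.0429), and the filter of 1 CPM in 4 tumors (0.0474). With DESeq2 included it passed in 4 of 11 other settings, and in 0 of 8 fits with a tumor left out, where the adjusted p was 0.0725 to 0.177.

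Markers of some host cells also separated the groups, and their part in the members' values was not tested. The 7 T-cell markers summed to 66.8, 104.8, 98.3, and 87.8 CPM in saline tumors and 59.3, 49.0, 31.7, and 44.9 CPM in mAb-DXd/IMQ tumors, with 7 of 7 lower and Cd8a most abundant. Cd8a and Cd4 fell, with log2 fold changes of -1.22 and -1.91 (adjusted p = 0.0201 for both). The 7 neutrophil markers summed to 86.1 to 227 CPM in saline tumors and 34.8 to 70.3 CPM in mAb-DXd/IMQ tumors, with S100a9 most abundant over the 8 tumors together. Of the 6 tested, 5 were lower and 1, Mmp8, was higher, and only Csf3r passed, which fell (log2 fold change -0.80, adjusted p = 0.0402), while Ly6g was not tested. Only 1 gene in all passed as lower without saline tumor 3, and 2 each did without saline tumor 4 and without mAb-DXd/IMQ tumor 4. Cd8a, Cd4, and Csf3r therefore did not all pass in these fits. B-cell and plasma cell markers, of which Jchain was the most abundant over the tumors together, summed to 2.58 to 35.5 CPM and 1.24 to 1.88 CPM, with 4 of 4 tested genes lower and 0 past the thresholds. Sums for carcinoma (Krt18), macrophages and monocytes (C1qa), fibroblasts (Col1a1), endothelium (Pecam1), epidermis (Krt10), skeletal muscle (Acta1), and adipocytes (Fabp4) overlapped between the groups, each named with its most abundant gene over the tumors together. Some single markers in these lists did separate the groups. Mrc1 and Pdgfra were lower, and Ly6c2 and Emcn higher, in every mAb-DXd/IMQ tumor than in every saline tumor. Groups did not overlap for 13.1% of all tested genes. With TMM scaling, all 8 carcinoma, 6 endothelium, and 4 tested epidermis markers were higher, and all 5 tested adipocyte markers were lower. Of the others, 7 of 8 macrophage and monocyte, 5 of 6 tested muscle, and 4 of 7 fibroblast markers were lower. In these lists 0 markers passed. The muscle marker Tnnc2 and the epidermal Krt2 were at 0 in all tumors.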

How the data were processed

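Per the labels, polyadenylated RNA of 4T1 tumors was sequenced on an Illumina HiSeq X machine. Values are raw read counts, which the authors deposited for each tumor without normalization, next to a gene length. The submitters' processing notes name HISAT2, HISAT, TopHat2, and mm39, but the coordinates of 53499 of 54409 shared genes, and of 32 of 33 members, equal those of GENCODE M21 on GRCm38. Counting tool and strandedness are not given in the sources used here.

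Tests ran in R 4.3.3 with edgeR 4.0.16 (DESeq2 1.42.0 and limma 3.58.1 for alternatives), and figures in Python 3.11.15 with matplotlib 3.10.9. Genes were kept by filterByExpr (minimum count 10, minimum total 15). Counts were scaled by TMM and tested with the quasi-likelihood F-test of edgeR on group alone, with Benjamini-Hochberg adjustment over all tested genes. CPM are TMM-normalized. Standard errors were approximated from the F statistic. The test steps were tested on simulated data. No library within a group repeated another (chi-square per gene 33.95 or more). Members and lists were chosen with earlier results of these data known.

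All members are described by role, with values in every tumor for those that passed or whose groups did not overlap and for Trp53, Cdkn1a, and Mdm2. Genes named from each other list were taken from those past the thresholds or the 4 with the smallest p, with Mki67 and Top2a. Psrc1, Btg2, Cd4, and Csf3r were chosen for detail after their values were seen. Alternatives were 3 other scalings, 2 other filters, DESeq2, limma-voom, no fold limit, a replicate block, a gene length correction (spline with 5 degrees of freedom), the block with that correction, and leaving out each tumor. Leaving out both tumors highest in epidermis counts was chosen after seeing the data.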

Additional observations from a re-analysis of the deposited data

Results flagged for a closer look

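Each member was examined in each group, 66 groups of 4 tumors in all, for a tumor that lay far from the others. This held for 2 groups, beside 3.3 expected by chance. Pidd1 in saline tumors was at 11.8 CPM in tumor 3 and at 9.77 to 9.91 CPM in the others, so that the gap to the nearest tumor made up 0.933 of the whole range. Xpc in saline tumors was at 30.4 CPM in tumor 4 and at 25.4 to 26.1 CPM in the others, a gap of 0.865 of the range.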

How the results depend on the processing

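Members' direction and side of the threshold were kept in 591 of 626 values recomputed under the alternatives. In 8 values a member newly passed (Phlda3, Eda2r, or Psrc1), and in 27 values, from 7 members, the sign changed. The cause of these changes was not tested.

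The number of genes past the thresholds, 197, was 358 without a low-count filter, 787 with DESeq2, and 122 with a gene length correction. With each tumor left out it lay between 10 and 203, with 111, 10, and 11 without saline tumor 2, 3, or 4 and 76, 88, and 12 without mAb-DXd/IMQ tumor 2, 3, or 4. It was 21 without the pair of tumors highest in epidermis counts, a fit chosen after the data were seen.

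The number of members past the thresholds, 0, was 1 with upper quartile scaling, total counts only, no low-count filter, and the filter of 1 CPM in 4 tumors (Phlda3 each time), and 3 with DESeq2. It lay between 0 and 1 with each tumor left out (1, Psrc1, without mAb-DXd/IMQ tumor 1). Gdf15 was not tested under the filter of 1 CPM. The members' median log2 fold change, 0.15, was 0.20 with upper quartile scaling and 0.18 with total counts only, while the median of all tested genes moved from 0.0215 to 0.069 and 0.0542. With each tumor left out it lay between 0.093 and 0.17.

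The labels number the tumors 1 to 4 in each group, but the same-numbered tumors came from different mice. Their deviations from the group means correlated at -0.17 to 0.079, and 2 of 8 tumors correlated best with their own number, so no pairing was used. With the replicate number as a replicate block, 14 genes and 0 members passed, and Hipk2 no longer did (log2 fold change -1.22, beside -1.20 without the block, adjusted p = 0.0831). With the block and a gene length correction, 14 genes and 0 members passed and the members' median was 0.10.

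Of the members that changed sign, Pidd1 had the largest value with all tumors (0.37), and it changed sign only without mAb-DXd/IMQ tumor 3. Tigar (0.0009) was -0.0041 with RLE scaling, -0.0037 without a low-count filter, -0.0022 with DESeq2, -0.0125 with a replicate block, -0.066 with the block and length correction, and -0.0503 with the length correction. Mdm4 (0.032) was -0.0084 with limma-voom and -0.0085 with a replicate block. Apaf1 (-0.04) was 0.011 with upper quartile scaling, 0.034 with the block and length correction, and 0.029 with the length correction. With each tumor left out, the values lay between -0.10 and 0.11 for Tigar, -0.059 and 0.206 for Mdm4, -0.077 and 0.029 for Apaf1, -0.073 and 0.16 for Ckap2, -0.048 and 0.17 for Ccng1, -0.20 and 0.015 for Ppm1d, and -0.014 and 0.54 for Pidd1. Gdf15 had the fewest counts of the members, 7 to 39 per tumor.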
